A study of Mus musculus with 8 samples.

Results

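The annexin family was followed in sorted colonic epithelial cells of mice colonized with either of 2 strains of Bacteroides thetaiotaomicron (B. theta), through every probe set of the array that its annotation assigns to 1 gene symbol and whose symbol is a listed annexin. Of 10 listed annexins, 9 had such a probe set, and together they had 20 of the 45037 probe sets. Anxa11 had none, because its 1 probe set, 1418468_at, is annotated to 3 gene symbols. The family was selected on the difference between BTWT and BTΔMAFF on these same arrays, in which Anxa3 and Anxa2 had stood out, so the differences between the groups are given as a description and serve as no independent evidence of a direction.

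SPF male mice first received metronidazole and ciprofloxacin, which both groups share (SPF-Abx mice). They were then colonized with BTWT, the wild-type strain, or with BTΔMAFF, a mutant from which the MAFF locus was deleted, and were sampled 4 wk later at 12 wk of age, with 4 mice and 1 array per mouse in each group. Living cells with the epithelial marker EpCAM and without the leukocyte marker CD45 were sorted after dissociation with EDTA, and their amplified cDNA was hybridized to Affymetrix mouse arrays. A group without B. theta was not analysed here, and nothing in the labels says whether mice of a group shared a cage.

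Annexins are cytosolic proteins that bind membranes rich in negatively charged phospholipids when calcium rises, through a core of repeated domains that most members share. Their N-terminal ends differ and bind different partners, above all the small calcium-binding S100 proteins. In epithelia they are known for organizing the membrane and the actin beneath it, for traffic of vesicles to the apical surface, and for sealing of torn membranes. Anxa1 is also released and dampens inflammation through formyl peptide receptors, and it is known for a role in repair of the intestinal mucosa.

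The deposited values are log2 values from which the median of the 8 arrays was subtracted for each probe set. A value of 0 is therefore the middle of the 8 mice, a difference of 1 is a 2-fold difference, and no level can be compared between genes. Whether a probe set was detected above background cannot be read from them. On the component that carried most of the variance (29.4%), 2 arrays stood apart from the other 6, namely those of BTWT replicate 2 and BTΔMAFF replicate 4. They also had the highest medians over all probe sets, 0.038 and 0.041, against -0.030 to 0.020 elsewhere. Limma's p-values set the difference between the groups against the spread between the mice of a group. Its estimate of that spread draws in part on all probe sets. In a sort of mixed epithelium, fewer cells of a type cannot be told apart from less RNA per cell.

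Among the annexins, Anxa3 was higher in all 4 BTWT mice than in any BTΔMAFF mouse, while 1 of 3 probe sets of Anxa2 and 1 of 3 of Anxa7 were lower in all 4 BTWT mice. The difference was 0.96 for Anxa3, -0.45 for that probe set of Anxa2, and -0.55 for that of Anxa7, on the log2 scale. A probe set of Anxa1 had the widest difference, -1.01, but its groups overlapped. In limma's fit over all 45037 probe sets with Benjamini-Hochberg adjustment, 0 of the 20 annexin probe sets passed an adjusted p of 0.05, and 0% of all probe sets passed. By the methods' unpaired test, 0 passed after adjustment (0% of all probe sets), and before it 1 was higher (1.67% of all) and 2 were lower (2.15% of all). At an unadjusted p under 0.05, 1 annexin probe set was higher in BTWT (2.24% of all probe sets) and 3 were lower (2.86% of all probe sets), while 16 did not reach it. The groups did not overlap in 1 annexin probe set with higher values in BTWT (1.27% of all probe sets) and in 2 with lower values (1.56% of all). Because the family was chosen by this contrast, nothing is read from these shares.

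**Figure D1:**
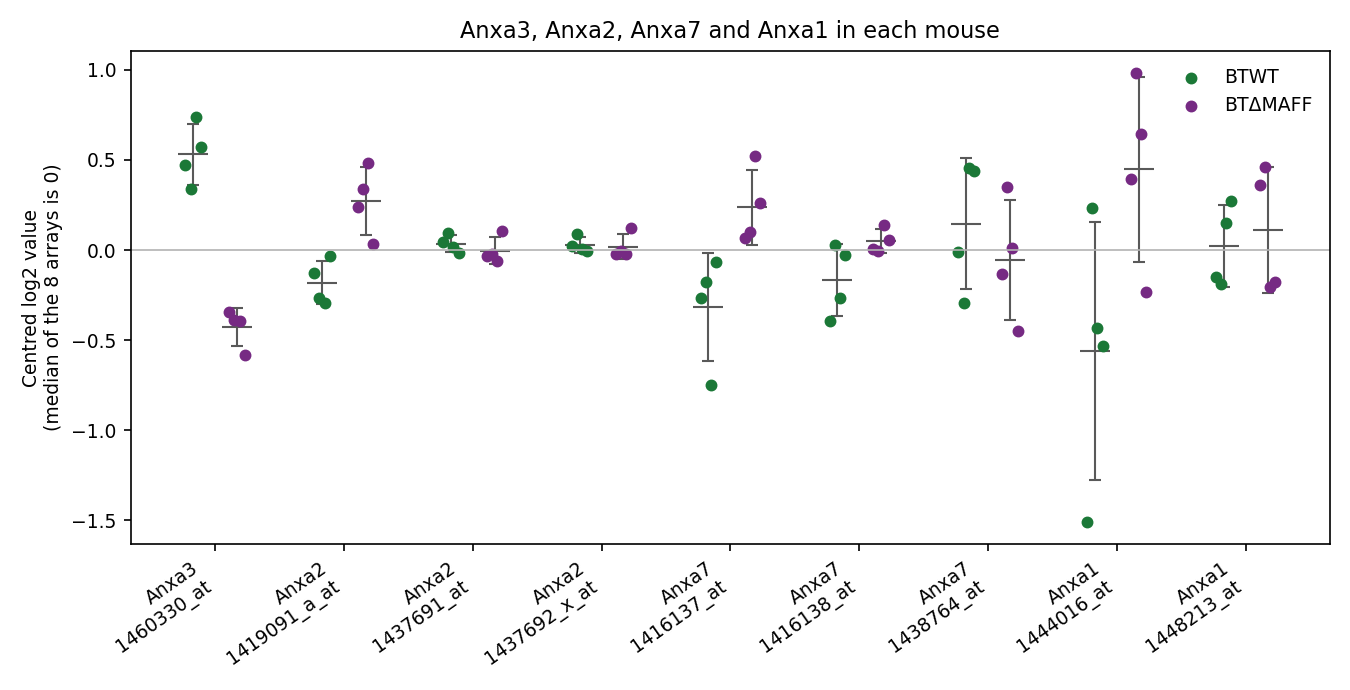
Centred log2 value (y axis, 0 is the median of the 8 arrays) of the 9 probe sets of Anxa3, Anxa2, Anxa7, and Anxa1 (x axis) by mouse. A point is 1 mouse, and bars give the mean and SD of each group (n = 4). The groups are apart in 1460330_at, 1419091_a_at, and 1416137_at, and they overlap in the other 6 probe sets.

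Anxa3, a calcium-dependent phospholipid-binding protein found in epithelia and in neutrophils, has 1 probe set, 1460330_at. Its centred log2 value was 0.47, 0.34, 0.74, and 0.57 in BTWT replicates 1 to 4 and -0.34, -0.39, -0.40, and -0.58 in BTΔMAFF replicates 1 to 4. The 2 groups were apart, and the gap between the lowest BTWT mouse and the highest BTΔMAFF mouse was wider than the SD of either group. The means were 0.53 ± 0.17 (SD, n = 4) and -0.43 ± 0.11 (SD, n = 4), which is a 1.94-fold difference with a standard error of 0.09 on the log2 scale and a 95% interval of 0.74 to 1.18. Limma's adjusted p over all probe sets was 0.101. It was 0.00722 with array weights, a setting in which 510 of all probe sets passed, and 0.0338 with 1 mean value per gene, where 18193 genes are adjusted over. How many of those genes passed is not given here. When single arrays were left out the difference lay between 0.89 and 1.02. It was 0.97 without the pair of arrays that stood apart. With no other probe set for the gene, this value has no check within the array.

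Anxa2, which forms a complex with the S100 protein S100a10 beneath the plasma membrane and is known for roles in endocytosis and in plasminogen activation at the cell surface, has 3 probe sets that disagreed. For 1419091_a_at, designed on a RefSeq transcript, the values were -0.13, -0.26, -0.29, and -0.034 in BTWT replicates 1 to 4 and 0.24, 0.34, 0.48, and 0.034 in BTΔMAFF replicates 1 to 4. The groups were apart by a narrow margin, set by BTWT replicate 4 and BTΔMAFF replicate 4. The difference was -0.45 (standard error 0.10), a 1.37-fold lower mean in BTWT, with adjusted p = 0.468 from limma (0.0267 with array weights), and it lay between -0.53 and -0.39 with single arrays left out.

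The 2 other probe sets of Anxa2, 1437691_at and 1437692_x_at, hardly varied. The first ran from -0.061 to 0.11 over all 8 mice and the second from -0.023 to 0.12, with the highest value of both in BTΔMAFF replicate 4 and the next in BTWT replicate 2, the 2 arrays that stood apart. Their differences between the groups were 0.037 (standard error 0.044) and 0.0088 (standard error 0.042), of the opposite sign to that of 1419091_a_at. The sign of 1437692_x_at turned negative when arrays were centred on their medians (-0.0092) or quantile normalized (-0.014), while that of 1437691_at stayed positive (0.019 and 0.020). The ending _x_at marks a probe set with probes that also match other sequences, and _a_at one whose probes match several transcripts of a gene. Within a mouse, 1419091_a_at minus 1437691_at lay between -0.36 and -0.020 in BTWT and between -0.071 and 0.54 in BTΔMAFF. That range overlapped only through BTΔMAFF replicate 4. The mean of the 3 probe sets differed by -0.14 (standard error 0.03) between the groups, with adjusted p = 0.210 from limma over 18193 genes.

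Anxa7, also called synexin, is known for promoting fusion of secretory granules and for binding sorcin, and it too has probe sets of both signs. For 1416137_at, the values were -0.27, -0.18, -0.75, and -0.069 in BTWT replicates 1 to 4 and 0.069, 0.099, 0.52, and 0.26 in BTΔMAFF replicates 1 to 4. All BTWT mice were below all BTΔMAFF mice, with BTWT replicate 3 far below the rest. The difference was -0.55 (standard error 0.17), a 1.47-fold lower mean in BTWT, with adjusted p = 0.728 from limma. Without BTWT replicate 3 it was -0.41.

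For 1416138_at, the values of Anxa7 were -0.40, 0.029, -0.26, and -0.030 in BTWT and 0.0037, -0.0037, 0.14, and 0.057 in BTΔMAFF, in the order of replicates. The groups overlapped through BTWT replicate 2, and the difference was -0.21 (standard error 0.10), or -0.14 without BTWT replicate 1. The third probe set, 1438764_at, designed on an expressed sequence tag, had -0.013, -0.29, 0.46, and 0.44 in BTWT and -0.13, 0.35, 0.013, and -0.45 in BTΔMAFF. Its groups overlapped over most of their range, with a difference of 0.20 (standard error 0.23) that was 0.072 when BTΔMAFF replicate 4 was left out and 0.35 when BTWT replicate 2 was. The mean of the 3 probe sets differed by -0.19 (standard error 0.09), with adjusted p = 0.840 from limma over 18193 genes.

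Anxa1, an inhibitor of cytosolic phospholipase A2, has 2 probe sets whose differences had the same sign but not the same size. For 1444016_at, designed on an expressed sequence tag, the values were -1.51, 0.24, -0.43, and -0.53 in BTWT and 0.40, 0.98, 0.65, and -0.24 in BTΔMAFF, in the order of replicates. BTWT replicate 2 was the highest of its group and BTΔMAFF replicate 4 the lowest of its own, which made the groups overlap, and these are the 2 arrays that stood apart. The difference was -1.01 (standard error 0.41) over all arrays, with adjusted p = 0.828 from limma, and -1.50 without both of them. Its unadjusted p was 0.043 with all arrays and stayed under 0.05 in 2 of the 8 fits with 1 array left out, those without BTWT replicate 2 and without BTΔMAFF replicate 4. The probe set was the widest spread of the family after that of Anxa13, with an SD over 8 arrays of 0.79.

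The other probe set of Anxa1, 1448213_at, designed on a RefSeq transcript, had -0.15, -0.19, 0.15, and 0.27 in BTWT and 0.36, 0.46, -0.20, and -0.18 in BTΔMAFF. Both groups spanned nearly the same range, and the difference was -0.088 (standard error 0.19), with a 95% interval of -0.55 to 0.37. The sign turned to 0.028 without BTΔMAFF replicate 2.

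**Figure D2:**
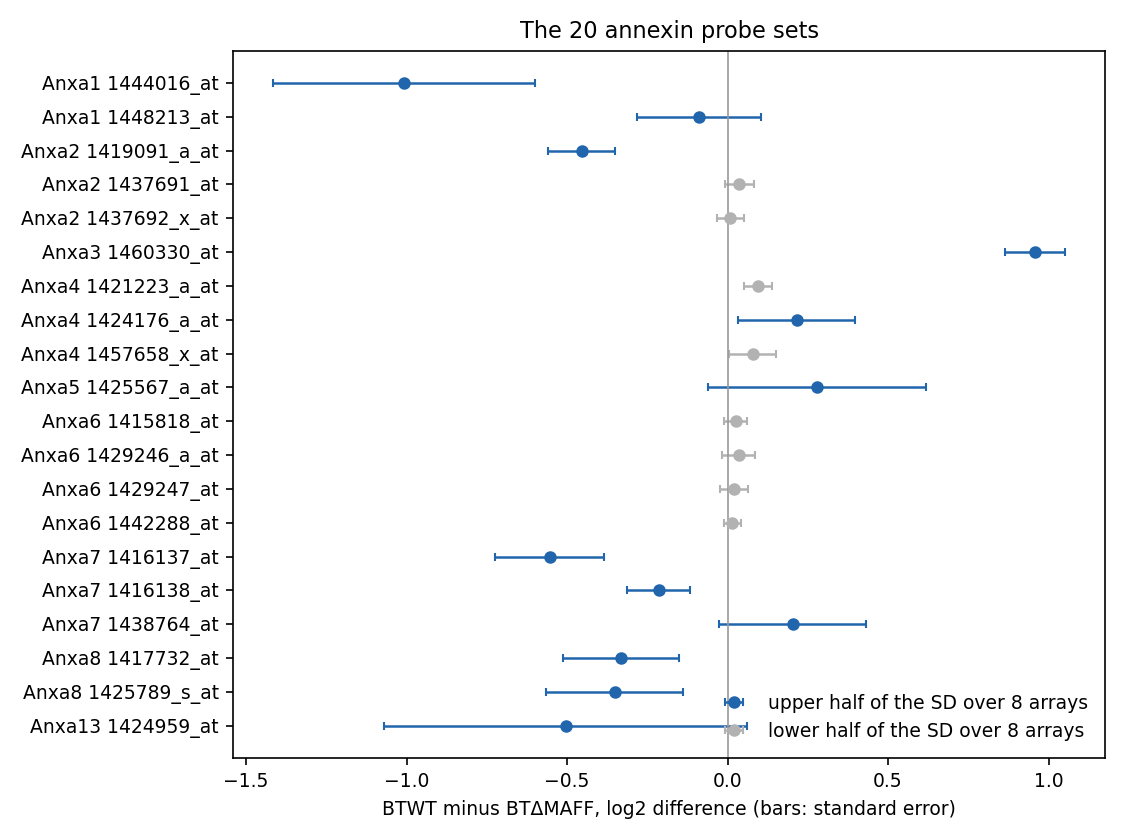
Difference between BTWT and BTΔMAFF on the log2 scale (x axis) for the 20 annexin probe sets (y axis), with its standard error from limma (bars). Blue points are the 12 probe sets with an SD over the 8 arrays above the median of all probe sets and gray points the 8 below it, all of which lie between 0.0088 and 0.095.

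Anxa8, which is best known from stratified epithelia, has 2 probe sets with differences of the same sign. The differences were -0.33 (standard error 0.18) for 1417732_at and -0.35 (standard error 0.21) for 1425789_s_at, and the groups overlapped in both. The first was -0.20 without BTΔMAFF replicate 1, and the second was -0.20 without BTWT replicate 1. In 1417732_at the highest mouse was BTΔMAFF replicate 1 at 0.52, while the other 3 BTΔMAFF mice lay between -0.0037 and 0.015. In 1425789_s_at the highest mice were BTΔMAFF replicate 4 at 0.58 and replicate 1 at 0.44. The ending _s_at marks probes that match transcripts of more than 1 gene.

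Anxa13, a myristoylated annexin of the intestine that acts in apical transport, varied most of the family, and it did so within the groups. Its 1 probe set, 1424959_at, stood at 2.09 and 1.12 in replicates 1 and 3 of BTΔMAFF and at 1.16 in replicate 1 of BTWT, while the other 5 mice lay between -0.18 and 0.019. Mice with high values occurred in both groups, and the difference was -0.50 (standard error 0.57), with a 95% interval of -1.84 to 0.83. Without BTΔMAFF replicate 1 it was -0.059, and -0.81 without BTΔMAFF replicate 2.

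Anxa5, whose binding to phosphatidylserine is used to stain dying cells, also spread within the groups. The values of 1425567_a_at were 0.49, -0.35, 0.84, and -0.030 in BTWT and 0.63, -0.54, -0.28, and 0.030 in BTΔMAFF. The groups overlapped, with a difference of 0.28 (standard error 0.34), and with array weights it was 0.88 (adjusted p = 0.184 from limma). It ran from 0.077 without BTWT replicate 3 to 0.50 without BTΔMAFF replicate 1. Anxa4, an epithelial annexin near the apical membrane that binds secretory vesicles, had 3 probe sets with differences of 0.078, 0.095, and 0.22 and overlapping groups in each. The highest mouse in all 3 was BTWT replicate 2, at 0.28, 0.17, and 0.63, and without it the differences were 0.0071, 0.062, and 0.064.

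Anxa6, which carries a duplicated annexin core and is known from mesenchymal and muscle cells, was flat in all 4 of its probe sets. Over all mice their values ran from -0.067 to 0.12, and the differences between the groups lay between 0.015 and 0.035. With these 4, 2 of Anxa2, and 2 of Anxa4, 8 of the 20 annexin probe sets had an SD over 8 arrays below the median SD of all probe sets, 0.13, and are called flat here. The probe set of Anxa11 shared with 2 other symbols had a difference of 0.23 (standard error 0.16) and overlapping groups, and it cannot be assigned to Anxa11 alone.

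The mean of the 8 flat annexin probe sets was highest on the 2 arrays that stood apart, 1 in each group. It was 0.12 in BTWT replicate 2 and 0.076 in BTΔMAFF replicate 4, and between -0.035 and 0.020 in the other 6 mice. Anxa4 1421223_a_at was an exception, at -0.015 in BTΔMAFF replicate 4. The same 2 arrays had the highest medians over all probe sets. All 8 had a small positive difference (2 of them, of Anxa2 and Anxa6, a negative one with centred arrays), and so did 89.0% of all flat probe sets. The part of the array medians in these differences was not tested beyond centring the arrays, which changed the median difference of the 20 probe sets from 0.017 to -9.71e-04. The median over all probe sets was 0.018. Of the 12 annexin probe sets that were not flat, 8 had a negative difference. This count is a description only, since the SD that sets a flat probe set apart holds the difference between the groups and the family was chosen by that difference.

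**Figure D3:**
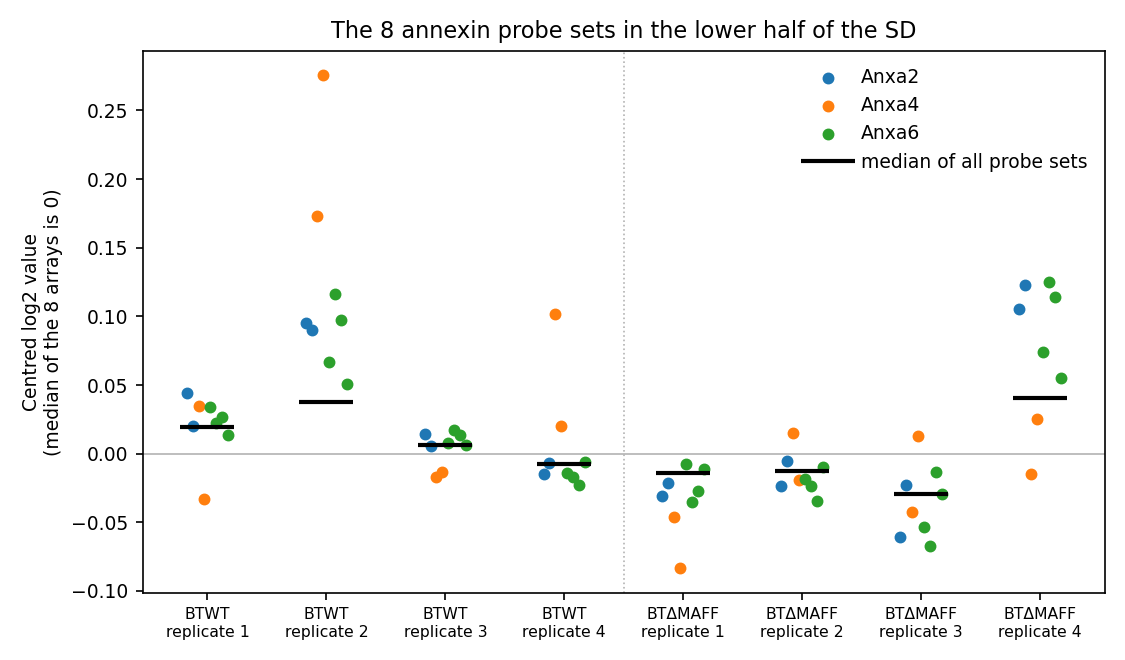
Centred log2 value (y axis) of the 8 flat annexin probe sets in each mouse (x axis), colored by gene, with the median of all 45037 probe sets on that array (black bars). The mean of the 8 is highest in BTWT replicate 2 and BTΔMAFF replicate 4, whose array medians are also highest.

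Agreement between pairs of probe sets of 1 gene was also examined. Their correlation was taken with the group means removed and does not use the difference between the groups, while the signs of the differences do use it. There were 17 such pairs, of which 13 had differences of the same sign and 4 of opposite signs, all 4 in Anxa2 and Anxa7 (with arrays centred on their medians, 7 pairs had opposite signs, 3 of them beyond their summed standard errors). In those 4 pairs, the 2 differences lay farther apart than the sum of their standard errors. Over 8 mice, Pearson's r passed an adjusted p of 0.05 over the 17 pairs in 7 of the 8 pairs in which both probe sets were flat, and in 0 of the 5 pairs in which neither was (exact permutation within groups, 2-sided, 576 arrangements, 0 of the 5 also at an unadjusted p under 0.05). After each array was centred on its median, 0 of the 17 pairs passed. In the flat pairs r then lay between 0.72 and 0.94 over all mice, and between -0.63 and 0.82 without the 2 farthest mice.

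The pair of Anxa2 probe sets 1437691_at and 1437692_x_at had Pearson's r = 0.98 (exact permutation p = 0.0017, the smallest possible, adjusted p = 0.015) and Spearman's rho = 0.98 (exact permutation p = 0.0017), and r = 0.89 without the 2 farthest mice. The probe set 1419091_a_at ran against 1437691_at, with r = -0.82 (exact permutation p = 0.035, adjusted p = 0.074), rho = -0.83 (exact permutation p = 0.031), and r = -0.51 without the 2 farthest mice. The Anxa7 probe sets 1416137_at and 1416138_at had r = 0.58 (exact permutation p = 0.23, adjusted p = 0.30) and rho = 0.64 (exact permutation p = 0.090), with r = 0.53 without the 2 farthest mice. The pair of Anxa1 had r = 0.30 (exact permutation p = 0.47, adjusted p = 0.53) and rho = 0.071 (exact permutation p = 0.88), with r = -0.35 without the 2 farthest mice. The pair of Anxa8 had r = 0.49 (exact permutation p = 0.27, adjusted p = 0.33) and rho = 0.33 (exact permutation p = 0.47), with r = -0.043 without the 2 farthest mice. Thus the probe sets of Anxa1, Anxa7, and Anxa8 that varied were not shown to vary together from mouse to mouse.

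The known partners of annexins and genes of membrane repair were read from the same fit. Of 33 genes listed, 30 had a probe set of their own and 3 (Fpr1, Fpr3, and S100a11) had none, and 1 probe set stood for each gene. The list also holds Anxa9 and Anxa10, which are annexins themselves and are counted among the 30. At an unadjusted p under 0.05 from limma, 0 were higher in BTWT (2.35% of all genes) and 1 was lower (3.37% of all genes), 29 did not reach it, and 0 passed the adjusted threshold. The share of 1 in 30 is near that over all genes and is no result about the partners. Their median difference was 0.0085, against 0.019 over all genes, and 13 of the 30 were flat.

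The 1 lower partner gene was Capn2, the catalytic subunit of a calpain, a calcium-dependent protease that acts in membrane repair. Its values on 1416257_at were -0.079, -1.30, -0.071, and -0.44 in BTWT and 1.05, 0.87, 0.73, and 0.071 in BTΔMAFF, in the order of replicates. All BTWT mice were below all BTΔMAFF mice, with a narrow margin between BTWT replicate 3 and BTΔMAFF replicate 4. The difference was -1.15 (standard error 0.33), a 2.22-fold lower mean in BTWT, with adjusted p = 0.679 from limma, and it lay between -1.36 and -0.88 with single arrays left out. S100a10, the partner of Anxa2, has 3 probe sets whose differences were 0.099, -0.11, and 0.049 (standard errors 0.09, 0.31, and 0.06), of both signs and with overlapping groups. The second, of 1439348_at, was -0.32 without BTΔMAFF replicate 1 and 0.076 without BTΔMAFF replicate 3. S100a8 and S100a9, the calprotectin subunits that abound in neutrophils, had differences of 0.057 and 0.075 (standard errors 0.05). Anxa9 and Anxa10, the annexins outside the 10 listed, had flat probe sets with differences of 0.019 and 0.027, and Fpr2, a receptor of Anxa1, had one of 0.011. Pla2g4a, the cytosolic phospholipase A2 that Anxa1 inhibits, had a difference of 0.39 (standard error 0.26), and Sri, which encodes sorcin, the partner of Anxa7, had one of -0.42 (standard error 0.71).

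**Figure D4:**
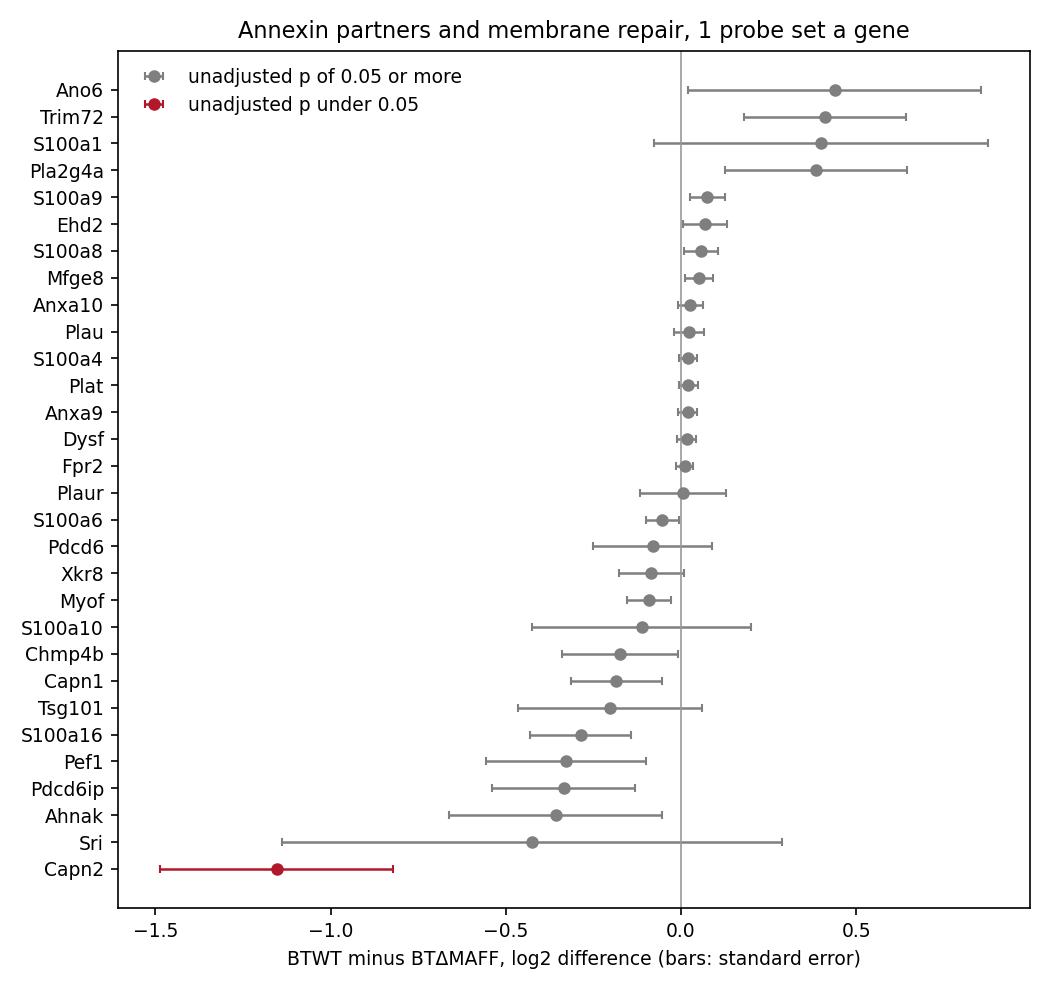
Difference between BTWT and BTΔMAFF on the log2 scale (x axis) with its standard error from limma (bars) for 30 genes (y axis), 1 probe set per gene. They are annexin partners and membrane repair genes, with the annexins Anxa9 and Anxa10 among them. Capn2, in red at -1.15, was the 1 gene with an unadjusted p under 0.05.

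Annexins are expressed at different levels in the cell types of a colon preparation, so marker lists were read beside them as the mean centred log2 value of each list in each mouse. Over all genes, 2.35% were higher and 3.37% lower at an unadjusted p under 0.05, so that single calls in lists of 6 to 12 genes are little more than that background. Of 9 markers of dividing cells, 6 were higher in BTWT at an unadjusted p under 0.05, among which Birc5, Top2a, and Cdk1 had the lowest p (differences 1.15, 1.02, and 1.08), and the list mean lay between -0.13 and 0.82 in BTWT and between -0.73 and -0.0072 in BTΔMAFF. Of 7 general epithelial markers, 2 were lower, Vil1 and Krt19 (-0.40 and -0.22), with list means of -0.069 to 0.023 and 0.015 to 0.10. Surface colonocytes had 1 of 12 higher (Ceacam20) and 2 lower (Slc26a3 and Krt20), with list means of -0.20 to 0.13 in BTWT and -0.10 to 0.10 in BTΔMAFF. Goblet cells had 1 of 8 higher (Agr2) and 2 lower (Fcgbp and Clca1), with -0.28 to 0.18 and 0.015 to 0.26. Stem cells had 1 of 9 higher (Ephb3), with -0.061 to 0.57 and -0.27 to 0.36. Enteroendocrine cells had 1 of 8 higher (Gcg), with -0.34 to 0.27 and -0.28 to 0.096, and tuft cells had 1 of 6 higher (Trpm5), with -0.081 to 0.29 and -0.22 to 0.13.

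Among cell types outside the colonic epithelium, 0 of 11 leukocyte markers passed in either direction, with list means of -0.014 to 0.042 in BTWT and -0.013 to 0.15 in BTΔMAFF, and 10 of the 11 were flat. Of 8 fibroblast markers 0 passed, but their list mean ran from -0.59 to 0.30 in BTWT and from -0.045 to 0.96 in BTΔMAFF. Of 8 endothelial and muscle markers 0 passed (-0.073 to 0.069 and -0.028 to 0.077). Of 11 markers of squamous anorectal epithelium, in which Anxa1 and Anxa8 are known to be expressed, 1 was higher, Sprr1a (0.97), and 8 were flat, with list means of 0.051 to 0.11 in BTWT and -0.12 to 0.026 in BTΔMAFF and a median difference of 0.021. The part of dividing cells, of fibroblasts, which the sort on EpCAM is meant to remove, and of the share of surface and goblet cells in the differences of Anxa3, Anxa2, Anxa7, and Anxa1 was not tested.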

How the data were processed

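Colonic epithelial cells of 4 BTWT- and 4 BTΔMAFF-colonized mice were measured on Affymetrix Mouse Genome arrays, 1 per mouse. The authors deposited log2 values in which each probe set's median over the 8 arrays is 0. Per the methods GeneSpring was used. Affymetrix Expression Console is named in the submitters' processing notes. How intensities were summarized and normalized is not stated in the sources read. Groups come from the sample titles.

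After 64 control probe sets were left out, limma (version 3.58.1, R version 4.3.3; lmFit and eBayes) fitted 45037 with group as the 1 term. P-values were adjusted by Benjamini-Hochberg over all of them, and 0.05 was the threshold. The array annotation gives 1 gene symbol for 34945 probe sets, several for 932, and none for 9160. Values of all mice are given for annexins with a probe set at an unadjusted p under 0.05 or with probe sets of opposite sign beyond their summed standard errors, and, outside that rule, for Anxa5. Of the partner list, genes at an unadjusted p under 0.05 and S100a10 were named by rule, and S100a8, S100a9, Anxa9, Anxa10, Fpr2, Pla2g4a, and Sri were named for their known relation to annexins after values were seen. In lists, each gene was read from its probe set of widest SD over all mice. The members, lists, and tests were chosen with earlier results of these data known. The fit was tested on simulated data. With 4 arrays in a group, precision is limited by their number.

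The replicate numbers did not pair the mice. Alternatives were quantile normalization, array centring, array weights, the replicate block, a robust prior, leaving out arrays, the methods' unpaired test, a filter on SD, and gene means. Probe sequences and proteins were not used here.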

Additional observations from a re-analysis of the deposited data

Results flagged for a closer look

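In 4 of 44 groups of 4 mice (22 probe sets, those of the annexins, Capn2, and S100a10 on 1439348_at), 1 mouse lay far from the other 3, where chance gives about 1 in 20. The gap to the nearest mouse, as a share of the range of the group, was above the 95% limit of Dixon's test in each. For Anxa8 on 1417732_at, BTΔMAFF replicate 1 was at 0.52 and the next mouse at 0.015 (share 0.964). For Anxa13, BTWT replicate 1 was at 1.16 and the next mouse at 0.019 (share 0.900). For Anxa2 on 1437692_x_at, BTΔMAFF replicate 4 was at 0.12 and the next mouse at -0.0053 (share 0.880). For Anxa6 on 1429247_at, BTΔMAFF replicate 4 was at 0.11 and the next mouse at -0.013 (share 0.859). The last 2 are flat probe sets on an array that stood apart.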

How the results depend on the processing

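With array weights, 2 annexin probe sets passed the adjusted threshold (Anxa3 with adjusted p = 0.00722 and Anxa2 1419091_a_at with 0.0267, from limma), 3 had higher and 4 lower values at an unadjusted p under 0.05, and partner genes were 4 higher and 5 lower, where 16.5% of all probe sets were higher and 9.11% lower. BTWT replicate 3 (weight 4.68) and BTΔMAFF replicate 2 (4.36) counted most, with at most 1.33 elsewhere. With gene means, 18193 genes and not 45037 probe sets are adjusted over. There, 1 annexin passed (Anxa3, adjusted p = 0.0338 from limma). At an unadjusted p under 0.05 from limma, 1 annexin and 2 partner genes were lower. The shares of all genes called with gene means are not given here, so nothing is read from these counts. The median difference was -0.14. With flat probe sets left out, by an SD that holds the difference itself, the median over 12 probe sets was -0.27. Without both arrays that stood apart, 1 partner gene was higher and 3 were lower, where 6.93% of all probe sets were higher and 3.61% lower. With arrays centred, chosen after the data were seen for the agreement of probe sets, 0 of 17 pairs passed against 7. Quantile normalization turned the median difference to -0.0012, and its cause was not tested beyond the centring. Leaving out single arrays gave 0 annexin probe sets past the adjusted threshold in each of 8 fits, 1 to 2 higher and 2 to 4 lower ones at an unadjusted p under 0.05, a median of -2.53e-04 (without BTWT replicate 2) to 0.047 (without BTΔMAFF replicate 4), and 0 to 1 higher and 1 to 4 lower partner genes. The 2 higher came without BTWT replicate 3 and the 4 lower without BTWT replicate 2. The higher partner gene came without BTWT replicate 1 or BTΔMAFF replicate 4, and the lower ones numbered 4 without BTΔMAFF replicate 4 and 2 without BTΔMAFF replicate 3. In these 8 fits, 1.73% to 5.94% of all probe sets were higher and 2.21% to 4.05% lower. Both shares were lowest without BTΔMAFF replicate 3 and highest without BTΔMAFF replicate 4. Of 344 differences of single probe sets under the alternatives, 342 moved by less than 1 SD between mice. The replicate block, the robust prior, the methods' test, and the filter on SD cannot change a difference. Leaving out 1 of 4 arrays cannot move it by 1 SD of its group. Most of the 342 were therefore fixed in advance, and nothing is read from that count. The 2 that moved, Anxa4 1421223_a_at and Anxa5 1425567_a_at, did so with array weights. None of the 5 with an unadjusted p under 0.05 changed sign.

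With the replicate number as a block, 0 annexin probe sets passed the adjusted threshold. The median difference of 0.017 could not change, since each group has 1 mouse of each number. The counts at an unadjusted p under 0.05 were 1 higher (2.97% of all probe sets) and 2 lower (3.13% of all). Anxa7 1416137_at had an unadjusted p of 0.050 in that fit of limma. The deviations of same-numbered mice correlated at 0.39, -0.040, 0.033, and -0.27 over all probe sets, so the numbers were not taken to pair the mice.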
